A study of Mus musculus with 10 samples.

Results

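De novo lipogenesis, the making of new fatty acids from sugar carbon, was followed through 10 genes in the livers of 10 male C57BL/6NCrSlc mice. The genes were listed by name for their place in the pathway: the regulators Srebf1, Mlxipl and Thrsp, the enzymes Acly, Acaca, Fasn, Scd1, Elovl6 and Me1, and the lipid droplet protein gene Pnpla3. All 10 had a row in the deposited series table and were matched to 14 probes on the arrays, out of 32636 names measured, and 9 were bright enough to be tested. Mulberry mice (n = 5) were kept on a high-cholesterol diet and took mulberry leaf extract in their drinking water over 4 weeks, and control mice (n = 5) received the same diet without the extract, so that cholesterol feeding is shared by both groups and mice on ordinary food were not analysed here. The dose of the extract and the age of the mice are not given in the sources used here. Each liver was read on 1 one-colour Agilent array, from 500 ng of RNA. The series title frames the work around hypercholesterolemia and lowered cholesterol synthesis, and the single comparison is mulberry against control.

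In hepatocytes, citrate exported from mitochondria is split by ATP citrate lyase into acetyl-CoA, which acetyl-CoA carboxylase turns into malonyl-CoA and fatty acid synthase builds into palmitate. Elongation and desaturation then give the oleate that is stored in triglyceride. The enzymes are raised together after feeding: SREBP-1, the product of Srebf1, responds to insulin and to the oxysterol receptor LXR, and ChREBP, the product of Mlxipl, responds to sugar.

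Of the 41128 probes used on each array, between 54.4% and 62.4% were well above background. All 12 hepatocyte markers found on the arrays passed the filter on dim probes. The numbering of the control mice differed between the deposited sources. Across 3602 genes with a single probe whose mean lay above the 75th percentile of the arrays, each of the 5 mulberry columns of the series table followed the scanner table of its own label, with r between 0.972 and 0.994. Each of the 5 control columns followed the scanner table of another control, with r between 0.978 and 0.992, against r between -0.619 and -0.006 with its own label. The series columns of control 1, 2, 3, 4 and 5 matched the scanner tables of control 5, 1, 2, 3 and 4. The exchange stayed within the control group, so differences between the groups do not depend on it, but any statement on a numbered control does. Numbers used here are those of the scanner tables, whose headers also hold the slide and the scan day.

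**Figure D1:**
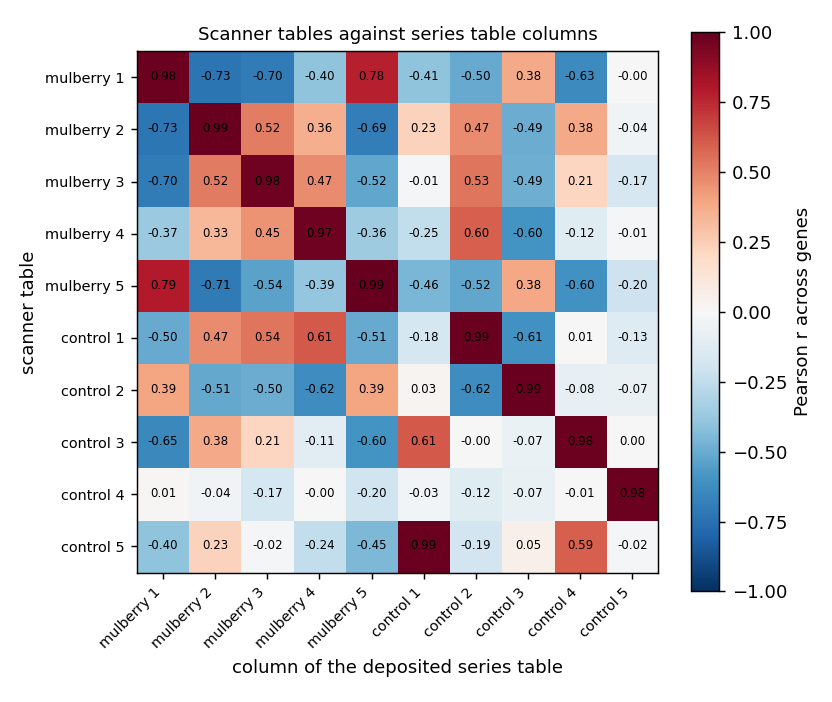
Pearson correlation, across 3602 genes, of each scanner table (rows) with each column of the deposited series table (columns), after each gene was centred on its mean over the arrays. The mulberry cells on the diagonal lie between 0.97 and 0.99, and the 5 high cells of the controls, between 0.978 and 0.992, lie off it, 4 of them next to the diagonal and 1 where series control 1 meets scanner control 5.

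Transcripts of the pathway were lower on average in mulberry livers, and no difference passed the test across all genes. All 9 tested genes had a negative difference, with a median of -0.72 on the log2 scale against -0.02 over the 17847 genes tested, of which 52.7% were below 0. None passed limma with Benjamini-Hochberg adjustment over all genes (background 0%, smallest adjusted p = 0.505 over all genes and 0.900 among these 9). At an unadjusted p under 0.05 stood 5 of the 9, all in the lower direction, where 2.26% of all genes did so (5.19% in either direction). The exact permutation test of each gene alone was two-sided over the 10 arrays, with a smallest possible p of 0.00794. It was run on these 9 genes only, so no share over all genes can be set beside it. Its p-values are not adjusted, and they are given with each gene below. In 4 of the 9 every mulberry liver was below the control mean, against 6.08% of all genes. None of the 9 had 5 mulberry values that lay all below or all above the 5 control values (background 0.319% below and 0.42% above). These 9 passed the filter on 10 of 10 arrays each. They varied together within the groups (median r = 0.51), so their counts are not those of 9 separate observations. The list was also chosen with earlier results of these data known. In whole liver, fewer hepatocytes and less of a transcript per hepatocyte cannot be told apart.

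**Figure D2:**
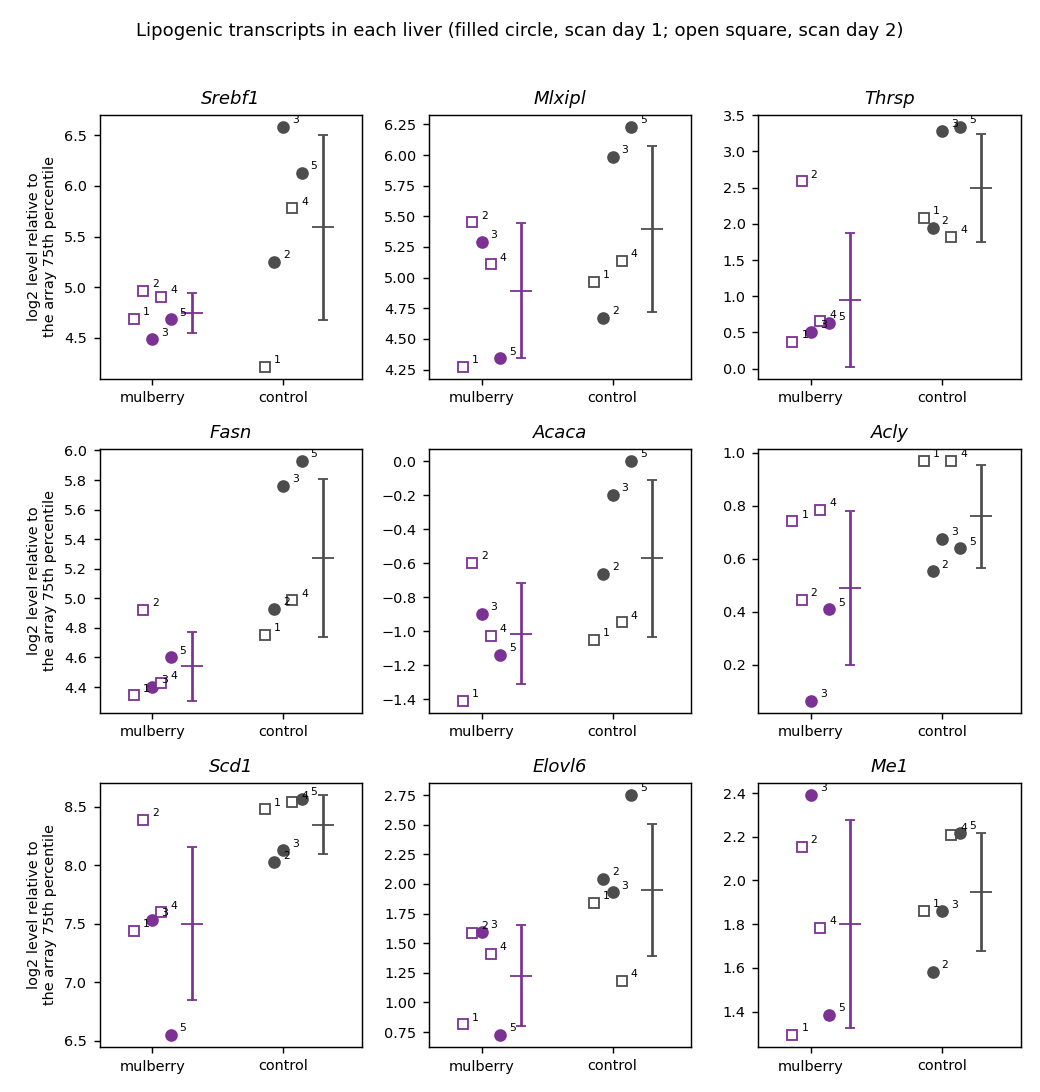
Level of the 9 tested genes in every liver, as log2 relative to the 75th percentile of the array; points are mice with their number, bars the mean and SD of 5. In Thrsp the mulberry mice other than mulberry 2 sit between 0.37 and 0.65, below all controls, and in most panels control 3 and control 5 lie highest.

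Thrsp, a small nuclear protein that promotes lipogenesis and responds to thyroid hormone and carbohydrate, had the largest difference of the group. Its level was 0.37, 2.59, 0.51, 0.65 and 0.63 in mulberry 1 to 5, against 2.09, 1.94, 3.29, 1.82 and 3.34 in control 1 to 5. In 4 mulberry livers Thrsp lay below every control, and mulberry 2 was in the control range. The mean was 0.95 ± 0.92 in mulberry and 2.49 ± 0.75 in control (SD, n = 5 each), a difference of -1.55 ± 0.46 (SE; exact permutation p = 0.0317, limma adjusted p = 0.900). Read as a fold, this difference of mean log2 levels is 65.8% lower in mulberry livers. Without mulberry 2 the difference was -1.96.

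Fasn codes for fatty acid synthase, which assembles palmitate from malonyl-CoA. Its brighter probe read 4.34, 4.92, 4.40, 4.43 and 4.60 in mulberry 1 to 5, against 4.75, 4.93, 5.76, 4.99 and 5.93 in control 1 to 5. All mulberry livers were below the control mean, and mulberry 2 alone lay above a control, which was control 1. The difference was -0.73 ± 0.24 (exact permutation p = 0.0159, limma adjusted p = 0.900). The dimmer Fasn probe, which lay well above background on every array, differed by -0.85 ± 0.33 with the same order of the highest controls.

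The stretches just before the transcription starts of Thrsp and Fasn are shown because both hold CCAAT boxes, the letters bound by the factor NF-Y. This factor is a known partner of SREBP at lipogenic promoters. A link between these letters and the levels of the genes was not tested. Capitals mark CCAAT on either strand (ATTGG on the opposite strand). The sequences are from RefSeq, build GRCm38.p6, read 5′ to 3′ on the minus strand, for chr7:97417551-97417670 and chr11:120824548-120824667, and end at the base before the start.
Thrsp: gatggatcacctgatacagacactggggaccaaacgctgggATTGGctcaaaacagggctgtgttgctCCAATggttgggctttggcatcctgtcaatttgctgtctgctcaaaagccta
Fasn: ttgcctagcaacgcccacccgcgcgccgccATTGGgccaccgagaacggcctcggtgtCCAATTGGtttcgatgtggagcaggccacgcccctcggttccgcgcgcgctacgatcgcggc
Thrsp has 2 matches, which begin 79 and 52 bases before the start, and Fasn has 3, at 90, 62 and 59 bases, of which the last pair overlaps in a palindrome. At least 1 CCAAT on either strand was found in the 250 bases before a start in 33.8% of all 32851 promoter windows, and at least 2 in 10.09%. Of the 13 windows of the pathway genes 7 had a match, and they belong to 6 of the 9 genes with a window (Fasn, Me1, Mlxipl, Pnpla3, Srebf1 and Thrsp). Acaca, which formed the most correlated pair with Fasn (r = 0.91 within the groups), had no match. The sterol response element TCACNCCAC and the E-box CACGTG, searched on both strands in the same 250 bases, were each found in 1 of the 13 windows of these genes, both times Mlxipl, and in 1.05% and 6.02% of all windows.

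Srebf1 was narrow in mulberry livers and wide in controls. Its level was 4.69, 4.96, 4.49, 4.91 and 4.68 in mulberry 1 to 5, against 4.21, 5.25, 6.58, 5.78 and 6.13 in control 1 to 5. Control 1 was below all mulberry livers, and the other 4 controls were above all of them. The values spanned 1.39-fold among mulberry livers and 5.16-fold among controls, and the spread was not tested. The difference of the means was -0.85 ± 0.37 (exact permutation p = 0.0873, limma adjusted p = 0.900), and it was -1.19 without control 1 and -0.60 without control 3. The single Srebf1 probe is not split by isoform.

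Mlxipl, the sugar-responsive regulator, overlapped widely between the groups. It ran from 4.27 to 5.45 in mulberry livers (median 5.11) and from 4.67 to 6.23 in controls (median 5.14), a difference of -0.50 ± 0.35 (exact permutation p = 0.23, limma adjusted p = 0.900). Mulberry 1 and mulberry 5 were the lowest livers, and control 3 and control 5 the highest. The Mlxipl difference was -0.30 without control 5, and -0.11 ± 0.35 without mulberry 1 and mulberry 5.

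Scd1, the desaturase that makes oleate from stearate, was 7.44, 8.39, 7.53, 7.60 and 6.55 in mulberry 1 to 5, against 8.48, 8.03, 8.13, 8.54 and 8.57 in control 1 to 5. As for Thrsp, 4 mulberry livers were below every control and mulberry 2 was among the controls. The means were 7.50 ± 0.65 in mulberry and 8.35 ± 0.25 in control (SD, n = 5 each), a difference of -0.85 ± 0.28 (exact permutation p = 0.0238, limma adjusted p = 0.900). The controls spanned 1.46-fold and the mulberry livers 3.58-fold, the reverse of the order for Srebf1. Without mulberry 5, the lowest liver, the Scd1 difference was -0.61.

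Elovl6, which elongates palmitate to stearate, was 0.81, 1.59, 1.60, 1.41 and 0.73 in mulberry 1 to 5, against 1.84, 2.04, 1.93, 1.18 and 2.75 in control 1 to 5. All mulberry livers were below the control mean, and control 4 alone lay within the mulberry range. The difference was -0.72 ± 0.29 (exact permutation p = 0.0476, limma adjusted p = 0.900), and it was -0.52 without control 5.

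Acaca codes for the carboxylase that commits acetyl-CoA to fatty acid synthesis. Its brightest probe ran from -1.41 to -0.60 in mulberry livers (median -1.03) and from -1.05 to 0.00 in controls (median -0.66), a difference of -0.44 ± 0.23 (exact permutation p = 0.127, limma adjusted p = 0.900). The groups overlapped, with control 1, control 2 and control 4 inside the mulberry range. The 4 Acaca probes did not go one way: the other probes differed by 0.07 ± 0.30, -0.04 ± 0.23 and -0.41 ± 0.37, the last well above background on 2 mulberry and 4 control arrays. All 3 were dimmer than the first, and the value of Acaca therefore rests on a single probe. The mean over the 4 probes differed by -0.20.

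The remaining enzymes differed least. Acly, ATP citrate lyase, ran from 0.06 to 0.78 in mulberry livers and from 0.55 to 0.97 in controls, a difference of -0.27 ± 0.17 (exact permutation p = 0.135, limma adjusted p = 0.900), and it was -0.17 without mulberry 3. Me1, the malic enzyme that supplies NADPH, ran from 1.29 to 2.39 in mulberry livers and from 1.58 to 2.22 in controls, a difference of -0.14 ± 0.23 (exact permutation p = 0.556, limma adjusted p = 0.932), with the mulberry range reaching past the control range on both sides. With each array left out in turn the Me1 difference ran from -0.29 (without mulberry 3) to -0.02 (without mulberry 1), and its sign turned without mulberry 1 and mulberry 5 (0.16 ± 0.20). Pnpla3, a lipase-like droplet protein gene that SREBP-1 raises in mouse liver, was not tested. Of the arrays, 1 mulberry and 0 control arrays had its probe well above background, and no fold is given.

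The estimated differences were not of the same size on each scan day, as the slide headers record it, but no change between the days passed for any gene. Scan day 1 held mulberry 3 and 5 and control 2, 3 and 5, on a slide for each group, so slide and group cannot be told apart there. Scan day 2 held mulberry 1, 2 and 4 and control 1 and 4. Mulberry 1 and control 1 and 4 shared slide 3, and mulberry 2 and 4 were on a slide without controls. Slide 3 was the only one with both groups, so for all other arrays slide and group cannot be told apart. The median difference of the 9 genes was -1.04 within day 1 and -0.29 within day 2, and 8 of the 9 were further below 0 on day 1. At an unadjusted p under 0.05 and lower stood 6 of the 9 within day 1, where 3.39% of all genes did so, and 0 of the 9 within day 2, where 0.381% of all genes did so. The days thus differed in how many genes reached that p over the whole array, and the counts of the 9 are not set against each other.

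Fasn differed by -1.04 ± 0.31 on day 1 and -0.30 ± 0.31 on day 2, Srebf1 by -1.40 ± 0.48 and -0.14 ± 0.48, and Acaca by -0.73 ± 0.28 and -0.01 ± 0.28. Thrsp differed by -2.29 ± 0.65 on day 1 and -0.75 ± 0.65 on day 2. Scd1 was at -1.20 ± 0.36 on day 1 and -0.70 ± 0.36 on day 2, and Acly at -0.39 ± 0.18 and -0.31 ± 0.18. In a fit with a separate difference for each day, the change between the days did not pass for any gene (limma, smallest adjusted p = 0.99998; 572 genes and 0 of the 9 at an unadjusted p under 0.05). Control 3 and control 5, the livers with the highest Srebf1, Mlxipl, Thrsp, Fasn and Acaca, were both scanned on day 1. With scan day as a block over all arrays the median was -0.66.

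**Figure D3:**
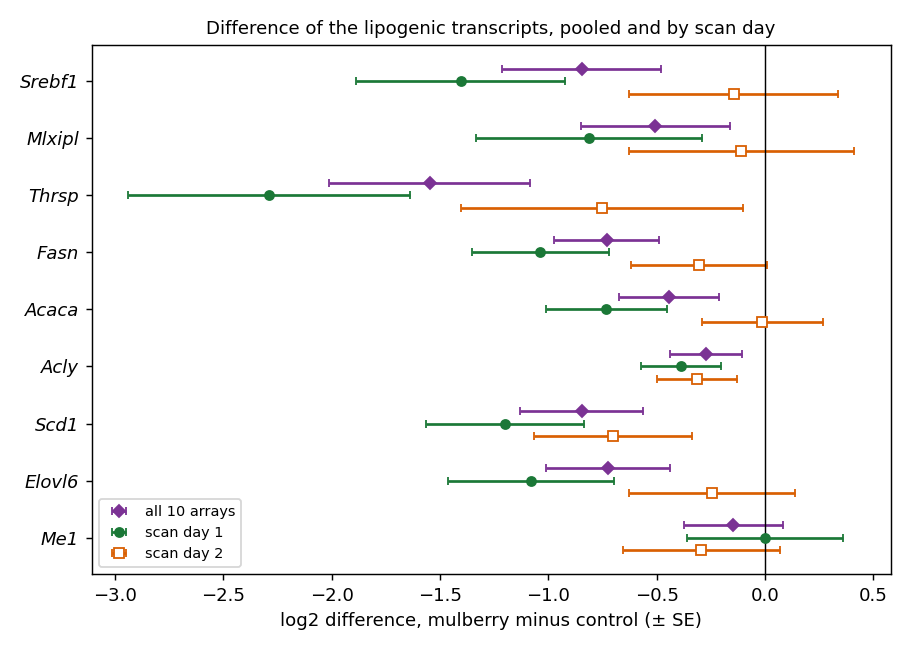
Difference of each gene on the log2 scale, mulberry minus control, with its SE, over all 10 arrays (5 against 5) and for scan day 1 (2 against 3) and scan day 2 (3 against 2) from the fit with a separate difference for each day. For 8 of the 9 genes the day 1 point lies further left than the day 2 point, Me1 being the other.

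Most of the genes varied together from mouse to mouse within the groups. After each group was centred on its own mean, 29 of the 36 gene pairs had r above 0 over the 10 arrays, with a median of 0.51. The highest was Acaca with Fasn (r = 0.91, rho = 0.83), followed by Acaca with Mlxipl (r = 0.87, rho = 0.81) and Fasn with Thrsp (r = 0.85, rho = 0.79), while Fasn with Srebf1 had r = 0.79 (rho = 0.81). Acly went the other way, with r below 0 to 7 of the other 8, lowest with Acaca (r = -0.55, rho = -0.52). Scd1 was close to unrelated to Srebf1 by r (0.05, rho 0.37). These correlations are descriptions over arrays that share scaling, scan day and slide.

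The mean of the 9 genes, each set to 0 at its control mean, was -0.96, -0.14, -0.65, -0.62 and -1.001 in mulberry 1 to 5, against -0.34, -0.32, 0.31, -0.17 and 0.51 in control 1 to 5. Mulberry 2 was thus above the 3 lower controls, and the other 4 mulberry livers were below all controls. Outside the 9, the genes whose levels followed this mean most closely over the 10 arrays were Csl (r = 0.97), which resembles citrate synthase in sequence, and Gstm7 (0.96), a glutathione transferase. They were followed by Srd5a1 (0.96), a steroid reductase, Upp2 (0.95), a uridine phosphorylase, Fmo5 (0.95), a flavin monooxygenase, and Cs (0.95), citrate synthase itself. The transcripts AK002213 and AK054415 had r of 0.95 each. Upp2 was -0.15 in mulberry and 1.47 in control on average, a difference of -1.62 ± 0.50, and Cs differed by -0.21 ± 0.12. These r include the difference between the groups, so the choice favoured genes that were lower in mulberry livers. The differences of Upp2 and Cs are therefore no separate finding. The probes of Cs and Csl may share signal, which was not tested.

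The genes that feed the pathway with carbon and NADPH were less displaced. The median of the 19 tested was -0.18, 14 being lower and 5 higher, and none passed (0 of 19). Khk, the ketohexokinase that admits fructose carbon, was at -0.47 ± 0.19 and below the control mean in 5 of 5 mulberry livers. Pklr, liver pyruvate kinase, was at -0.50 ± 0.27. G6pdx, which opens the pentose phosphate route to NADPH, was at 0.43 ± 0.54, with 2.45 and 2.38 in mulberry 1 and 5 against 0.03 to 0.34 in mulberry 2, 3 and 4 and -0.08 to 1.56 in controls. The G6pdx difference was 0.08 without mulberry 1, 0.10 without mulberry 5, and -0.46 ± 0.33 without both. Without both, Pklr was at -0.30 and Khk at -0.31. Leaving out mulberry 2, mulberry 3 or control 2 gave G6pdx values from 0.65 to 0.69, and leaving out control 1 gave 0.25.

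Among 18 tested genes that govern the lipogenic factors, 15 had a lower mean in mulberry livers; the median was -0.11 and 0 passed. Insig1, which holds SREBP in the endoplasmic reticulum and is itself an SREBP target, was at -0.81 ± 0.26 (limma adjusted p = 0.900) and below the control mean in 5 of 5 mulberry livers. The clock-linked repressor Bhlhe40 was at -0.52 ± 0.35, and the nuclear receptor gene Pparg at 0.48 ± 0.29. Insig1 was at -0.47 without mulberry 1 and mulberry 5. Bhlhe40 was at -0.33 without mulberry 3 or without control 3, and Pparg at 0.24 without control 5. Of 8 genes around malonyl-CoA, 6 had a lower mean (median -0.14; 0 passed). Mid1ip1, a paralog of Thrsp that aids assembly of acetyl-CoA carboxylase into filaments, was at -0.64 ± 0.23. It was between 2.16 and 2.61 in mulberry livers and between 2.40 and 3.81 in controls, where control 1 alone was below 2.61. Acacb, the carboxylase at the mitochondrial surface, was at -0.53 ± 0.34, and Hlcs, which attaches biotin to carboxylases, at 0.32 ± 0.26. Acacb was at -0.30 without mulberry 1, at -0.05 without mulberry 1 and mulberry 5, and at -0.26 as the mean over its probes. Hlcs was at 0.52 without control 1, at 0.18 without control 4 and at 0.16 without control 5.

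Downstream, in fatty acid tailoring and triglyceride assembly, 9 of 16 tested genes had a lower mean (median -0.05; 0 passed). Lpin1, a phosphatidate phosphatase, was at -0.81 ± 0.52, Fads1, the delta-5 desaturase, at -0.49 ± 0.24, and Gpd1, a glycerol phosphate dehydrogenase, at 0.44 ± 0.27. Lpin1 was at -1.31 without control 2. Without mulberry 1 and mulberry 5, Lpin1 was at -0.49, Fads1 at -0.14 and Gpd1 at 0.72. Among 9 tested genes linked to ChREBP, 5 had a lower mean (median difference -0.39, mean difference 0.10, and 0 passed). Of the lower ones, Khk, Pklr and Tkfc also stand in the list of carbon and NADPH supply. The 9 genes did not share a direction. G6pc, glucose-6-phosphatase, was at -0.61 ± 0.36, and Txnip, a thioredoxin-binding protein gene raised by sugar, at 0.58 ± 0.37. Fgf21, a liver hormone gene, was at 2.10 ± 0.86. Txnip was at 0.25 without control 2. G6pc was at -0.38 without control 3 and at -0.24 without mulberry 1 and mulberry 5. Within scan day 2 the direction turned for Txnip (-0.02), Gpd1 (-0.06) and Pklr (0.04), and within the shared slide for Pparg (-0.07).

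Genes of the fasting and PPAR alpha response stood on the other side. All 15 tested were higher on average, with a median of 0.62, and 0 passed; besides Fgf21 the largest were Acot2, an acyl-CoA thioesterase (1.38 ± 0.64), and Vnn1, a pantetheinase (1.30 ± 0.63). Vnn1 was at 1.99 without mulberry 1 and mulberry 5. The direction of all 3 turned within scan day 2 (Fgf21 -0.02, Acot2 -0.09, Vnn1 -0.08) and between mulberry 1 and the controls of the shared slide (-1.75, -0.50 and -1.37). Their mean, relative to controls, was -0.28, 0.86, 1.45, 1.25 and 0.50 in mulberry 1 to 5, against 1.26, -0.76, -0.60, 0.52 and -0.42 in control 1 to 5. Control 1, with the lowest Srebf1 of all livers, had the highest such mean among controls, and control 3 and 5, with the highest lipogenic means, were below 0, as was control 2. Mulberry 1 had a low lipogenic mean and a fasting mean below 0. Control 2 had the lowest fasting mean of all livers (-0.76) and a lipogenic mean of -0.32. The pair of means thus did not move oppositely in every liver. Clock genes, several of which cycle with feeding, had a median of -0.01, with 6 of 11 below 0. The largest difference was that of Dbp (0.70 ± 0.45), with 0 of 5 mulberry livers below the control mean. Arntl was at -0.22 ± 0.16, with 4 of 5 below. A median over genes that go both ways does not show whether the groups differed in clock phase, which was not tested.

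Markers of cell types moved with the lipogenic genes in part. Of 12 hepatocyte markers 12 were lower (median -0.28), with list means from -0.91 to 0.02 in mulberry livers and from -0.42 to 0.20 in controls, and the lowest was mulberry 1. In mulberry 3 the lipogenic mean was -0.65 where the hepatocyte mean was 0.02, and in mulberry 1 the values were -0.96 and -0.91.

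Of 14 macrophage markers 13 were higher (median 0.65), with list means from -0.71 to 2.04 in mulberry livers and from -0.80 to 0.99 in controls. The means were 2.04 in mulberry 1 and 2.01 in mulberry 5, the livers with the lowest lipogenic means. All 13 lymphocyte markers were higher (median 0.71; -0.07 to 1.79 in mulberry livers, -0.41 to 0.71 in controls). Stellate cell markers were higher in 10 of 12 (-0.19 to 1.08 in mulberry livers, -0.42 to 0.28 in controls), and endothelial markers in 5 of 10 (-0.23 to 0.20 and -0.16 to 0.18). Bile duct markers were higher in 2 of 5 (-0.22 to 0.64 in mulberry livers, -0.18 to 0.25 in controls) and red cell markers in 1 of 4 (-0.55 to 0.22 and -0.05 to 0.06). None of these genes passed.

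Without mulberry 1 and mulberry 5 the median of the 9 genes was -0.42, with 8 of 9 lower. In that fit 2 of the 9 stood at an unadjusted limma p under 0.05, against 9.78% of all genes in either direction and 1.03% lower. Thrsp was then at -1.25 ± 0.54, Srebf1 at -0.81 ± 0.46, Fasn at -0.69 ± 0.29, Scd1 at -0.51 ± 0.23 and Elovl6 at -0.42 ± 0.29. Fat cells also make lipogenic enzymes. Of 10 adipocyte markers on the arrays, 5 were tested, and all 5 were higher on average (list means 0.52 to 1.06 in mulberry livers, -0.55 to 0.96 in controls). Their differences ran from 0.008 ± 0.31 for Fabp4 to 2.06 ± 1.05 for Cidec, whose highest level of all livers was in control 1 (5.62). Among the 5 were genes that hepatocytes express too. The rest were too dim to be tested, and of these Adipoq, Lep and Retn were well above background on 0 of 10 arrays. The part of the other cell types in the differences was not tested.

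**Figure D4:**
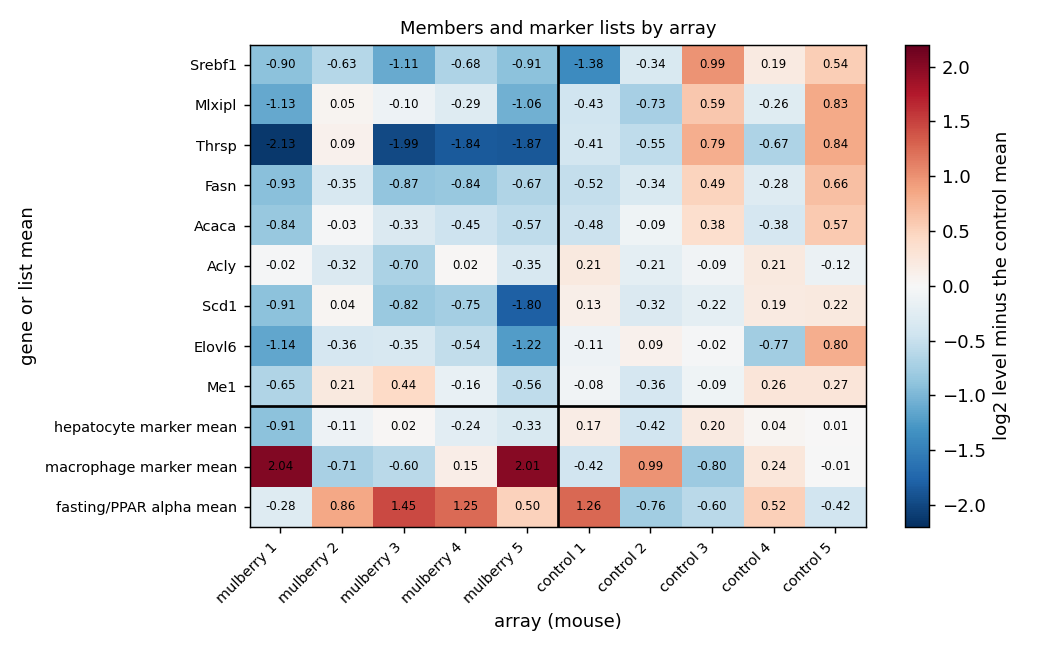
Each row gives, in every array, the log2 level of a gene minus its control mean, or for the 3 bottom rows the mean of a list on the same scale; mulberry arrays are left and control arrays right of the line. Thrsp is near 0 in mulberry 2 and between -2.13 and -1.84 in the other mulberry arrays, and macrophage means are highest in mulberry 1 and 5.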

How the data were processed

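Liver RNA of 5 mulberry and 5 control mice was hybridised to 1 array per mouse. The deposited scanner tables give each spot's processed intensity, from which the authors' scanner software had taken off background array by array, with no scaling across arrays, per the file headers. The submitters' processing notes name that software as Agilent Feature Extraction 10.1.1.1. The deposited series table holds linear intensity per gene symbol. Its scale was read from its values (column medians 5.10 to 5.31 in log2), and its normalization and its way of combining probes are not given in the sources used here. It served as an alternative. All columns belonged to a listed sample (0 unused).

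Control spots and spots flagged as outliers were left out, repeat spots averaged in log2, and 46 incomplete probes dropped. A level is the log2 processed intensity after subtracting the array's 75th percentile, and is not compared between genes. Accessions were named through a RefSeq gene table (GRCm38.p6), which matched 25070 probes (61%). A gene is its probe with the highest mean, and was tested if 4 or more arrays of either group had it well above background. Mulberry minus control was tested with limma 3.58.1 (R 4.3.3; two-sided, Benjamini-Hochberg over 17847 genes, threshold 0.05), and single genes also with an exact permutation test. The fit was tested on simulated data. Other tools were the data.table package (1.17.8), Python 3.11.15 and, for plots, matplotlib 3.10.9. The number of arrays limits precision.

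The members, lists and alternatives were chosen with earlier results of these data known. Named are the 10 genes, up to 4 genes of each pathway list by absolute difference, and the 8 genes most correlated with the member mean. Alternatives were other scalings, filters and sources of values, normexp correction (on the median signals, the mean not being used here), array weights, blocks and left-out arrays; the fit with a difference per scan day was chosen after seeing the data. Same-numbered arrays did not deviate together (r from -0.444 to 0.408) and the numbers of controls differ between sources, so no pairing was used.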

Additional observations from a re-analysis of the deposited data

Results flagged for a closer look

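In 20 sets of 5 values (10 genes in each group), 1 array stood far from the other 4 in 2 sets, where chance gives about 1 in 20. Mulberry 2 had the highest mulberry level of Thrsp (2.59, against 0.37 to 0.65 in the other mulberry livers), a gap of 0.873 of the group's range. Control 1 had the lowest control level of Pnpla3 (-6.85, against -5.49 to -5.10 in the other controls), a gap of 0.777, for a probe that was not well above background on any control array. No explanation was tested for either.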

How the results depend on the processing

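Of 243 alternative values of the 9 tested genes, 241 had the sign of the reported value and 2 were reversed, both for Me1 (0.0017 within scan day 1 and 0.16 without mulberry 1 and mulberry 5). No gene of the 9 passed under any of the 27 alternatives (limma, adjusted p from 0.117 to 0.9999). Of 673 alternative values of the other named genes, 653 kept their sign and 20 were reversed. With slide as a fixed block, which leaves the contrast within slide 3, values were -1.75 for Fgf21, -0.35 for Txnip, -0.50 for Acot2, -1.37 for Vnn1, -0.78 for Gpd1 and -0.067 for Pparg. Within scan day 2 they were -0.018 for Fgf21, -0.017 for Txnip, -0.086 for Acot2, -0.082 for Vnn1, -0.060 for Gpd1 and 0.040 for Pklr. G6pdx was -0.085 with array weights and -0.46 without mulberry 1 and mulberry 5. The median of the 9 genes was -0.29 within scan day 2, and from -0.81 to -0.52 with each array left out in turn. With slide as a fixed block it was -0.70, against -0.25 over all genes, of which 67.5% were lower. Of the 9 genes, those with all mulberry arrays below all control arrays numbered 1 with median scaling (2.1% of all genes tested), 7 within scan day 1 (11% of all), 2 within scan day 2 (10.2% of all) and 8 within slide 3 (56.1% of all, with 1 mulberry against 2 control arrays). With each array left out they numbered from 0 to 3, the 3 without mulberry 2 (0.93% of all). Median scaling moved the median of all genes to -0.17 and that of the 9 to -0.88, with 73.2% of all genes lower in place of 52.7%. Past the threshold stood 1 gene and 1 probe with array weights and without mulberry 1 (Rnf208 in both), and 1 gene and 1 probe without mulberry 1 and mulberry 5 (ENSMUST00000073543), while leaving out the other arrays gave 0; none of these is a lipogenic gene, and they were named after their values were seen. The cause was not tested for any of these. With the replicate block the count of genes was 0 and the median of the 9 was -0.72, with 3 of the 9 rather than 5 at an unadjusted p under 0.05 (2.44% of all genes at that p and lower, against 2.26% without the block); the sign of each of the 9 held. Signals near background limit Pnpla3 and the dimmest Acaca probe.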
